A study of Mus musculus with 6 samples.

Results

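Immediate early genes are genes that cells transcribe within minutes of a stimulus, without first making new protein. Taken here were 10 of them, picked by gene name from the 38561 genes of the raw count table: Fos, Fosb, Jun, Junb, Atf3, Egr1, Egr2, Klf2, Ier2 and Dusp1. All 10 were found, each under 1 Ensembl ID, and all 10 passed the filter on low counts, which kept 16495 genes. Egr2 and Klf2 passed it through the control libraries alone, since both had 0 reads in heterozygous cells.

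The study sequenced RNA of tdTomato-positive cells sorted from the medial ganglionic eminence (MGE) of mouse embryos at E11.5. The MGE is the part of the ventral forebrain where many cortical interneurons arise. There were 2 heterozygous libraries (Magoh lox/+; Nkx2.1-Cre; ROSAloxSTOPloxTdTomato) and 4 control libraries (Nkx2.1-Cre;ROSAloxSTOPloxTdTomato), all of the C57BL/6 strain. Magoh encodes a protein at the heart of the exon junction complex, which marks mRNAs after splicing. Cells of both genotypes carry the Cre and the tdTomato reporter, so recombination is limited to cells with a history of Nkx2-1 expression. The labels name neither the exons that the floxed Magoh allele loses nor the number of embryos behind a library, so a p-value here reflects no more than how far these libraries differ, which may be technical.

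Signals from growth factors, calcium or stress reach these genes through MAP kinases and through the factors SRF with its ELK partners, and CREB. Fos, Fosb, Jun, Junb and Atf3 encode leucine zipper proteins that pair with each other to form AP-1 and related dimers, Egr1, Egr2 and Klf2 encode zinc finger factors, and Dusp1 encodes a phosphatase that switches MAP kinases off again. Their mRNAs are short-lived, and the same genes are known to be induced when tissue is taken apart into single cells for sorting. In neurons they are widely used as markers of recent activity.

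The promoters of the members on which the comparison turns are shown first, because binding sites for CREB and SRF there are the textbook route of induction. Sequences are RefSeq entries on build GRCm38.p6 and run from 250 bases before to 50 bases after the annotated start. Of the 10 genes, 8 matched the promoter table; Egr1 and Ier2 are named only. The letters searched, on both strands, were TGACG (the half-site of the cAMP response element), TGACGTCA (the full element, which holds the half-site on both strands), TGANTCA (the AP-1 site) and the CArG box of SRF. Capitals mark the matches. Dusp1 is shown as the member whose heterozygous libraries lay above all controls, Klf2 and Egr2 as the members without a read in heterozygous cells, and Fos as the member with a wide spread between libraries. Dusp1 lies at chr17:26508423-26508722 on the minus strand, Klf2 at chr8:72318812-72319111, Egr2 at chr10:67537619-67537918 and Fos at chr12:85473640-85473939, each of these 3 on the plus strand. Egr2 has 5 overlapping or nearby entries, and the one shown was chosen as the first that holds both CREB and SRF letters.
Dusp1: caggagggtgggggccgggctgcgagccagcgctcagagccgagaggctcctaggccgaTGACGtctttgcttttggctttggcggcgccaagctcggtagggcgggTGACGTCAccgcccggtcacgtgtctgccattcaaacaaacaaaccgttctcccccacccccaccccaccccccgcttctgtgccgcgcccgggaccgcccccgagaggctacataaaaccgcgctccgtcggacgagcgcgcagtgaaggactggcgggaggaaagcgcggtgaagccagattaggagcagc
Klf2: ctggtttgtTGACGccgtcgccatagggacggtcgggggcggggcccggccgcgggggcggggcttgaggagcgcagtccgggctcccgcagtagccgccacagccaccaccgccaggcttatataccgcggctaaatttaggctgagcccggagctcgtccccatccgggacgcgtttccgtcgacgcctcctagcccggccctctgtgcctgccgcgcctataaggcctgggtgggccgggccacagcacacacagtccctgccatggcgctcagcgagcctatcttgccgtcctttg
Egr2: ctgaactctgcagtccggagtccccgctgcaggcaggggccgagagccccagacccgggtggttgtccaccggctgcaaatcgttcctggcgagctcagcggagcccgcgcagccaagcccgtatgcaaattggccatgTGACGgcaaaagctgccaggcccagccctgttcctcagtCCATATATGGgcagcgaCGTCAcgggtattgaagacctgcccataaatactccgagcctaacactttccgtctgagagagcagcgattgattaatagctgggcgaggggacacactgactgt
Fos: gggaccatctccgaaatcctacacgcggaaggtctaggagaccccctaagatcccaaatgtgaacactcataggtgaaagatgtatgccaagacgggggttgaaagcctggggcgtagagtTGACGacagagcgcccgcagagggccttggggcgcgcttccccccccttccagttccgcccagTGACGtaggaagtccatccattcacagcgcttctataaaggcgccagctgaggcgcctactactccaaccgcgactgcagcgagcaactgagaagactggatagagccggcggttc

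Dusp1 held the full element once, at -143 to -136 from the start, and another half-site at -191 to -187. Fos held half-sites at -129 to -125 and at -66 to -62, and Klf2 a single one at -241 to -237. In the Egr2 entry shown a CArG box stood at -72 to -63, with half-sites on either side. Over the 8 matched genes, 7 held TGACG in at least 1 entry, 1 held TGACGTCA, 1 held a CArG box and 0 held TGANTCA. Over all 32851 promoter entries of this length the shares were 20.8% for TGACG, 1.79% for TGACGTCA, 1.63% for the CArG box and 7.81% for TGANTCA. These shares count single entries, while a member counted if any of its entries matched, and Egr2 had 5. A match describes the letters only. These windows are short, and elements further upstream were not searched.

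The libraries held 37.4 to 49.2 M counts each, and levels are given as CPM, counts scaled to library size with TMM factors. Where a library had 0 reads of a gene, as many as 3 would be compatible with its depth, which is 0.061 to 0.0835 CPM (a limit for counting error only). Magoh itself stood at 57.1 and 48.6 CPM in heterozygous libraries 1 and 2, against 68.1, 118, 63.6 and 74.3 CPM in controls 1 to 4 (edgeR, adjusted p = 0.85). Heterozygous library 1 and control 2 had 0 reads over the Y-linked genes Uty, Kdm5d, Eif2s3y and Ddx3y. Genes with at least 8000 exon bases were also lower against those with under 1000 in both of these libraries than in the other 4. Control 4 stood apart in markers of myeloid cells, the lineage of microglia. The 8 of 10 listed markers that were measured summed to 10.2 and 0 CPM in heterozygous libraries 1 and 2, against 2.63, 2.73, 1.92 and 81.0 CPM in controls 1 to 4. Of their defining genes, Csf1r, the receptor on which microglia depend, was at 3.11 and 0 CPM in heterozygous libraries 1 and 2, against 0.965, 0.529, 0.619 and 28.2 CPM in controls 1 to 4. Ptprc was at 0 in both heterozygous libraries and control 3, and C1qa in heterozygous library 2 and control 3. The MGE genes Nkx2-1, Dlx2 and Lhx6 were present in every library, from 51.3 CPM upward.

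Per exon length the members fell into a high and a low class. In CPM per kilobase (kb) of exon, Jun stood at 21.7 ± 3.56 in heterozygous cells (SD, n = 2) and 25.1 ± 3.91 in controls (SD, n = 4). Ier2 stood at 20.4 ± 4.88 CPM per kb in heterozygous cells and 23.9 ± 1.90 in controls, and Dusp1 at 17.8 ± 0.130 in heterozygous cells and 13.9 ± 1.52 in controls. These 3 were the high class. In controls Jun and Ier2 did not differ beyond their spread, while every control value of Dusp1 lay below those of both.

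The remaining 7 members were far lower. Control means were 1.14 ± 0.689 CPM per kb for Fos, 1.05 ± 0.733 for Egr1, 0.681 ± 0.349 for Junb and 0.519 ± 0.366 for Atf3 (SD, n = 4), and then 0.185 ± 0.124 for Klf2, 0.135 ± 0.0896 for Fosb and 0.0733 ± 0.0677 for Egr2. Heterozygous means of the same level were 0.819 ± 0.676 CPM per kb for Fos, 0.683 ± 0.215 for Egr1, 0.8 ± 0.306 for Junb, 0.323 ± 0.131 for Atf3 and 0.149 ± 0.135 for Fosb (SD, n = 2). Within this low class no neighbours in the order differed beyond their spread. JunD, the AP-1 member that is made without stimulation, was above all of them. Jund stood at 269 ± 30.03 CPM per kb in heterozygous cells (SD, n = 2) and 237 ± 18.4 in controls (SD, n = 4).

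**Figure D1:**
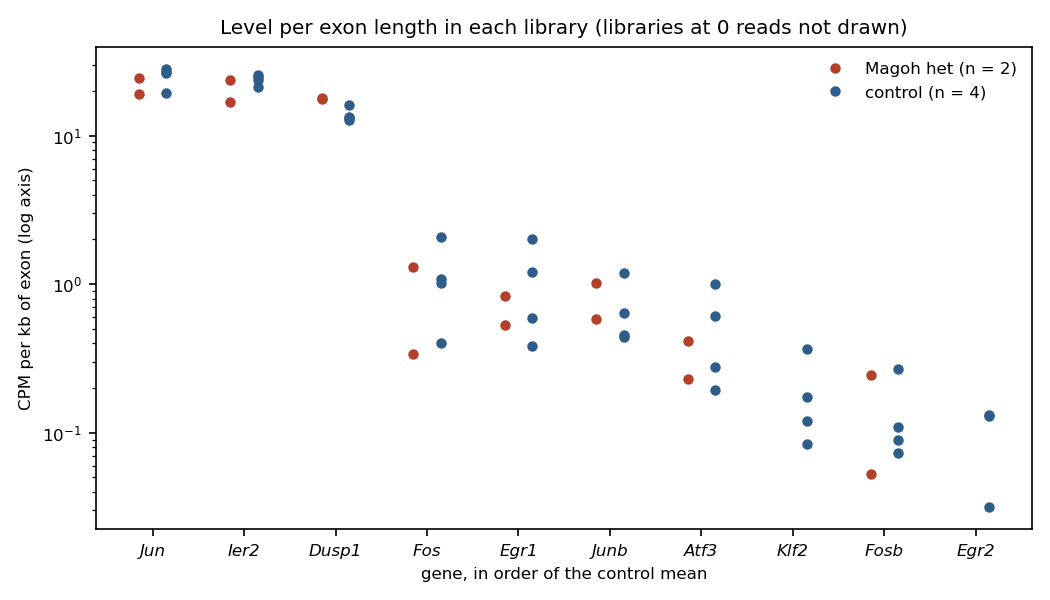
Level of each immediate early gene in CPM per kb of exon (log axis), 1 point per library, heterozygous libraries left of controls, genes in the order of the control mean. Jun, Ier2 and Dusp1 lie above 12 CPM per kb in every library, and the other 7 genes lie below 2.1 CPM per kb.

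No member passed the test between genotypes. With edgeR's quasi-likelihood test and Benjamini-Hochberg adjustment over all 16495 genes, 0 of 10 members had an adjusted p under 0.05, as did 0% of all tested genes. At an unadjusted p under 0.05 there were 2 members in either direction, against 5.72% of all tested genes. Both, Egr2 and Klf2, were lower (3.98% of all tested genes), and 0 members were higher (1.75% of all tested genes). DESeq2 called 0 members, against 0.455% of all tested genes (75 genes), and limma-voom called 0 members. Both heterozygous libraries lay above all controls for 1 member, Dusp1 (6.17% of all tested genes), and below all controls for 1 member, Klf2 (8.14% of all tested genes). Egr2 and Klf2 were kept by the filter only because of their reads in controls, so their part of these counts supports no difference. The log2 fold change was below 0 for 7 of 10 members, against 53.9% of all tested genes. Without Egr2 and Klf2 it was 5 of 8. The median was -0.35 over the 10, also with Egr2 and Klf2 at the limits given below, and -0.22 over the 8, and that of all tested genes was -0.03.

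**Figure D2:**
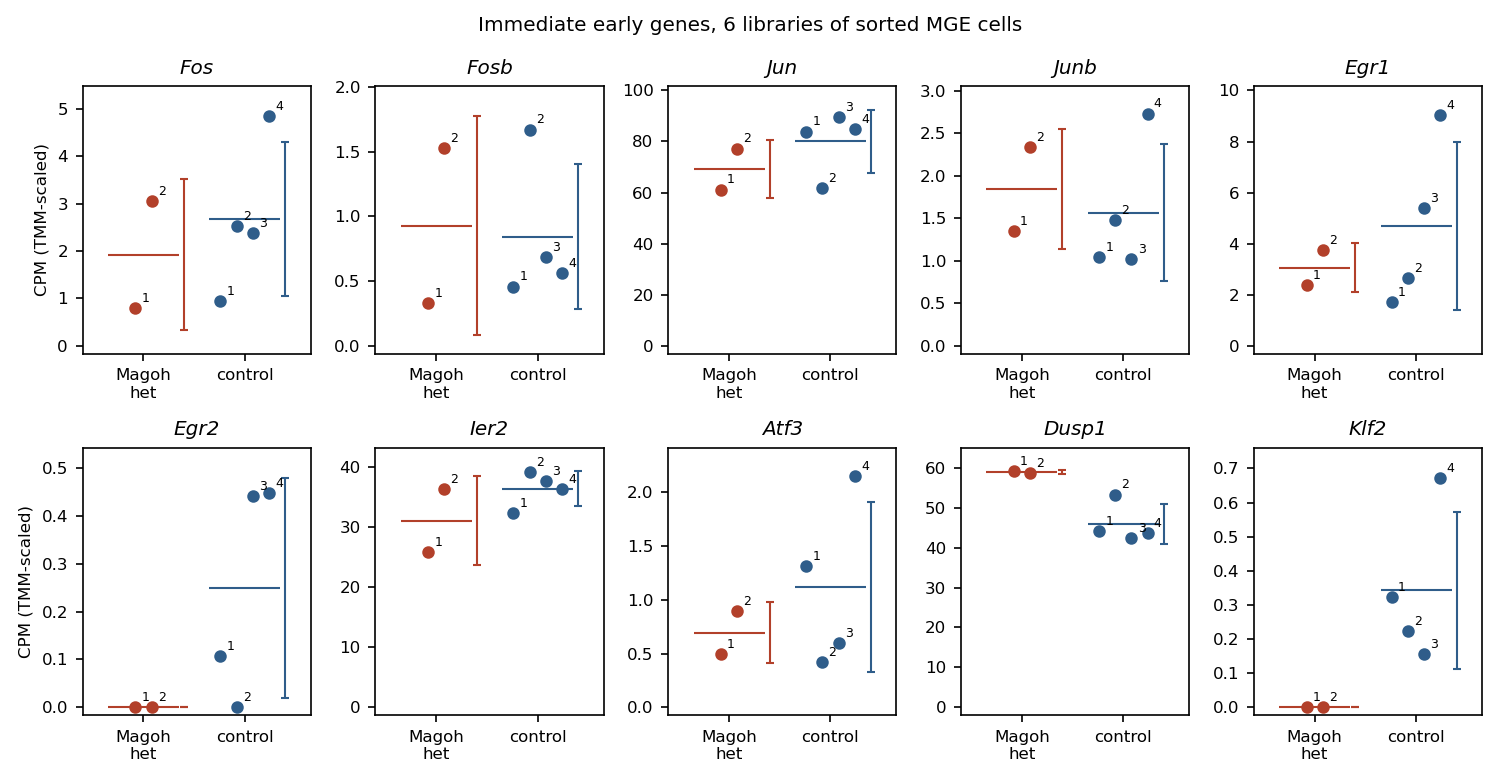
TMM-scaled CPM of the 10 genes, 1 point per library, numbered by replicate, with the group mean (line) and SD (bar); heterozygous (n = 2) left of control (n = 4), axes from 0. The groups overlap in 8 panels. Dusp1 is above all controls, and Klf2 is at 0, in both heterozygous libraries.

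Among the Fos genes the libraries of a genotype differed more than the genotypes. Fos (ENSMUSG00000021250; chromosome 12, 85473890 to 85477273, plus strand, GRCm38) encodes the best known partner of Jun. It had 0.801 and 3.05 CPM in heterozygous libraries 1 and 2, against 0.938, 2.53, 2.39 and 4.86 CPM in controls 1 to 4. The lowest and the second highest library were both heterozygous, so the groups overlapped. In reads these were 34 and 150, with 217 in control 4 (exact Poisson 95% intervals 23.5 to 47.5, 127 to 176 and 189 to 248, for counting error only). The spread therefore went beyond counting error. The fitted log2 difference was -0.47 ± 0.71 (SE; edgeR, adjusted p = 0.999), and it was 0.20 without heterozygous library 1.

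Fosb (ENSMUSG00000003545; chromosome 7, 19302696 to 19310051, minus strand) encodes a Fos relative that in neurons also exists as a truncated, long-lived form. It had 0.33 and 1.53 CPM in heterozygous libraries 1 and 2, against 0.456, 1.67, 0.685 and 0.559 CPM in controls 1 to 4. Heterozygous library 2 and control 2 were the high libraries, and the other 4 lay at or below 0.685 CPM. Between genotypes the log2 fold change came to 0.15 ± 0.80 (SE; edgeR, adjusted p = 0.999), and it was -1.34 without heterozygous library 2.

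Over the controls Jun varied least of the 5 members that encode AP-1 and related proteins. Jun (ENSMUSG00000052684; chromosome 4, 95049034 to 95052222, minus strand, 1 exon) had 61.2 and 77.2 CPM in heterozygous libraries 1 and 2, against 83.8, 61.7, 89.6 and 84.9 CPM in controls 1 to 4. The libraries without Y-linked reads, heterozygous 1 and control 2, were the lowest pair and nearly equal. Heterozygous library 2 lay below the other 3 controls. On the log2 scale the difference was -0.21 ± 0.20 (SE; edgeR, adjusted p = 0.999), below 0 in all 18 alternatives.

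Junb (ENSMUSG00000052837; chromosome 8, 84974484 to 84978718, minus strand), whose product often opposes Jun, had 1.34 and 2.34 CPM in heterozygous libraries 1 and 2, against 1.05, 1.47, 1.02 and 2.73 CPM in controls 1 to 4. Both heterozygous values lay inside the control range, and control 4 was highest. The genotypes differed by a log2 value of 0.23 ± 0.53 (SE; edgeR, adjusted p = 0.999), and -0.23 without heterozygous library 2. In GENCODE M21, 173 of its 2301 exon bases are shared with Prdx2 on the opposite strand, a gene at 475 to 814 CPM. Whether reads were counted by strand is not stated in the labels, so part of the Junb reads cannot be assigned with certainty. Jun shares 232 of 3189 exon bases with the antisense gene Junos, which stayed under 1.6 CPM.

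Atf3, a stress-induced partner of Jun proteins (ENSMUSG00000026628; chromosome 1, 191170296 to 191218039, minus strand), had 0.495 and 0.895 CPM in heterozygous libraries 1 and 2, against 1.31, 0.417, 0.597 and 2.15 CPM in controls 1 to 4. The heterozygous values lay among the controls, of which control 4 was the highest. Its log2 fold change was -0.68 ± 0.76 (SE; edgeR, adjusted p = 0.999), and it was -0.15 without control 4.

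Egr1, the zinc finger factor that is a standard readout of MAP kinase signalling, varied as Fos did (ENSMUSG00000038418; chromosome 18, 34859823 to 34864984, plus strand). It had 2.38 and 3.74 CPM in heterozygous libraries 1 and 2, against 1.72, 2.64, 5.39 and 9.04 CPM in controls 1 to 4. Both heterozygous libraries lay inside the control range, which spanned 5.27-fold from control 1 to control 4. The fit gave a log2 fold change of -0.62 ± 0.64 (SE; edgeR, adjusted p = 0.999), and it was -0.09 without control 4.

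Egr2 and Klf2 were the members without a read in heterozygous cells. Egr2 (ENSMUSG00000037868; chromosome 10, 67535475 to 67542188, plus strand), known for patterning the hindbrain and for myelination, had 0 reads in both heterozygous libraries, against 4, 0, 20 and 20 reads in controls 1 to 4. Control 2 was at 0 too, so the groups overlapped. Against a floor of 3 counts per heterozygous library, the control mean of Egr2 was 3.78-fold higher, a limit that leaves out the spread of the controls. Egr2 passed the filter on low counts through its control reads, so no p is given for it.

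Klf2 (ENSMUSG00000055148; chromosome 8, 72319033 to 72321656, plus strand), a factor of endothelial cells under flow and of immune cells, had 0 reads in both heterozygous libraries, against 12, 8, 7 and 30 reads in controls 1 to 4. The groups did not overlap. Against the same floor its control mean was 5.2-fold higher, again without the spread of the controls. For the same reason as with Egr2 no p is given. Of tested genes with a control mean of 5 to 30 reads, 224 of 2603 (8.61%) likewise had 0 reads in both heterozygous libraries. Without control 4 neither gene passed the count filter. Klf2 also did not pass it without control 1, nor Egr2 without control 3.

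Markers of cells in which Klf2 is known to be active were measured beside it. The 14 endothelial markers summed to 15.6 and 9.21 CPM in heterozygous libraries 1 and 2, against 16.4, 8.4, 18.8 and 32.4 CPM in controls 1 to 4. The defining markers Cdh5 and Kdr were detected in all 6 libraries. Pecam1 was at 0 in control 2, and Tie1 was at 0 in heterozygous library 2 and control 2. Of the other 10 markers, named here after their values were seen, Cldn5, Emcn, Erg and Sox17 were at 0 in both heterozygous libraries, as Klf2 was. In controls 1 to 4 Cldn5 was at 0.0536, 0, 0.398 and 0.604 CPM, Emcn at 0, 0, 0.376 and 0.671 CPM, Erg at 0.241, 0.111, 0.0442 and 0.112 CPM, and Sox17 at 0.0804, 0, 0 and 0.134 CPM. Erg had reads in all controls, but its control 3 value lay under the limit for 0 reads in heterozygous libraries 1 and 2 (0.0707 and 0.061 CPM). The groups overlapped at 0 for the other 3. Erg and Sox17 did not pass the filter on low counts. Of the 12 tested endothelial markers, both heterozygous libraries lay above all controls for 0 and below them for 0 (6.17% and 8.14% of all tested genes). Esam, Egfl7, Flt1 and Sox18 went the other way in heterozygous library 1, their highest library, at 0.778, 3.79, 0.495 and 1.23 CPM. Tek and Robo4 stood at 0.684 and 0.330 CPM there. In heterozygous library 2 Esam, Egfl7 and Tek were at 0.0203, 1.30 and 0.732 CPM, and Flt1, Sox18 and Robo4 at 0. Control 4 was highest in Klf2, endothelial and myeloid markers together. The part of these cells in the Klf2 and Egr2 values was not tested, and fewer cells of a type cannot be told apart from less RNA per cell.

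Ier2, a small nuclear protein with little known biochemistry (ENSMUSG00000053560; chromosome 8, 84661331 to 84662852, minus strand), was high and even. It had 25.8 and 36.3 CPM in heterozygous libraries 1 and 2, against 32.3, 39.1, 37.6 and 36.2 CPM in controls 1 to 4. Heterozygous library 1 lay below every control and library 2 lay among them. Heterozygous over control, the log2 value was -0.23 ± 0.19 (SE; edgeR, adjusted p = 0.984), and it was 0.011 without heterozygous library 1.

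Dusp1 was the member above all controls in both heterozygous libraries. This phosphatase gene (ENSMUSG00000024190; chromosome 17, 26505590 to 26562128, minus strand) had 59.3 and 58.6 CPM in heterozygous libraries 1 and 2, against 44.2, 53.3, 42.4 and 43.6 CPM in controls 1 to 4. The heterozygous libraries were nearly equal, and control 2 was the control closest to them. In the fit the log2 fold change came to 0.36 ± 0.16 (SE; edgeR, unadjusted p = 0.0565, adjusted p = 0.85), and DESeq2 gave an adjusted p of 0.664. An exact permutation test of the CPM gave p = 0.0667 (two-sided), the smallest that 2 against 4 libraries can give. On the log2 CPM scale heterozygous library 1 exceeded control 2, the other library without Y-linked reads, by 0.15. Heterozygous library 2 exceeded the mean of controls 1, 3 and 4 by 0.43. Both differences had to be above 0, since Dusp1 lay above all controls, and each rests on 1 heterozygous library, without a spread. The lowest log2 fold change over 18 alternatives was 0.32 and the highest 0.45. In GENCODE M21 the gene overlaps the start of Ergic1 on the opposite strand and shares 11 of 3311 exon bases with it, and Ergic1 stood at 223 and 238 CPM in heterozygous libraries 1 and 2, against 238, 247, 225 and 248 CPM in controls 1 to 4. Of 10 neuron markers, 7 lay above all controls in both heterozygous libraries (6.17% of all tested genes), while Elavl3, Map2 and Ina overlapped. The 10 summed to 3746 and 4540 CPM in heterozygous libraries 1 and 2, against 3343, 2931, 2614 and 2221 CPM in controls 1 to 4. The part of neurons in the Dusp1 values was not tested.

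**Figure D3:**
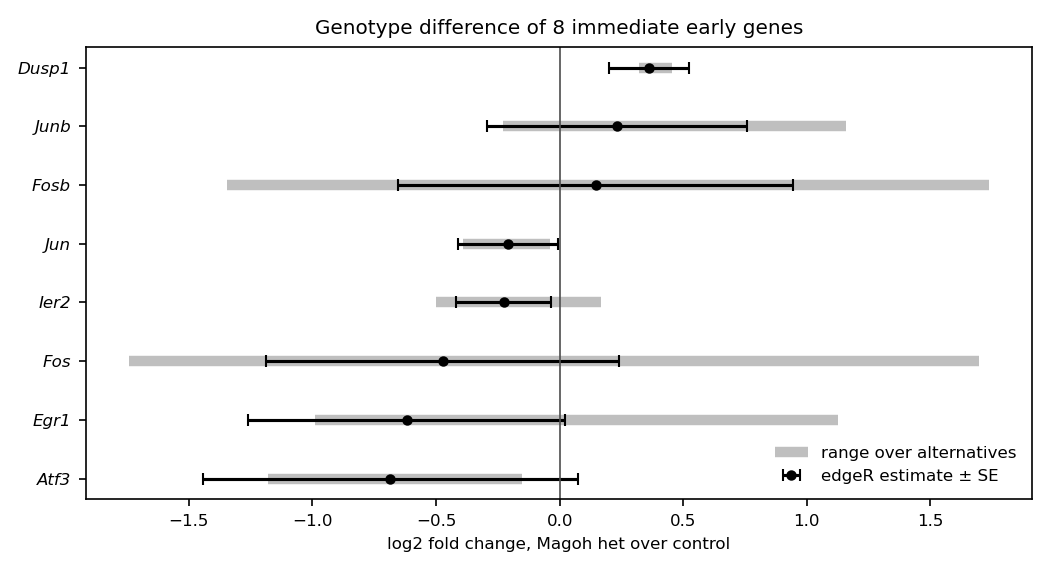
Log2 fold change (heterozygous over control, edgeR) of the 8 genes with reads in heterozygous cells; points with SE bars, grey bars the range over all alternatives. Dusp1 stays above 0, Jun and Atf3 stay below 0, and the ranges of the other 5 genes cross 0. No gene passed the test.

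The members did not all rise and fall together across libraries. As log2 CPM minus the mean of the 6 libraries, averaged over the 8 members with reads in heterozygous cells, heterozygous libraries 1 and 2 stood at -0.53 and 0.34, against -0.34, 0.0061, -0.018 and 0.55 in controls 1 to 4. Heterozygous library 1 and control 4 were the extremes, and heterozygous library 2 was the second highest. With Egr2 and Klf2 in the mean, which passed the filter through controls alone, heterozygous libraries 1 and 2 stood at -0.76 and -0.06, against -0.14, -0.08, 0.20 and 0.84 in controls 1 to 4. The mean over 8 was added after the values were seen. Control 4 held the highest value for 6 members (Fos, Junb, Egr1, Egr2, Atf3 and Klf2), while it was highest for 15.7% of all tested genes. For Egr2 and Klf2, without heterozygous reads, the highest library had to be a control, so these genes add nothing to that count. Egr2 also had 20 reads in control 3 as in control 4, and only the scaling set them apart. Heterozygous library 1 held the sole lowest value for 4 members (Fos, Fosb, Jun and Ier2), while it held it for 13.9% of all tested genes. Over the 6 libraries, Pearson r with the mean of the other members, Egr2 and Klf2 included, was 0.0067 for Fosb and -0.70 for Dusp1. For the rest it ran from 0.41 (Junb) to 0.77 (Fos). Dusp1 had an r below 0 with 7 of the other members taken singly, and of 0.29 with Fosb and 0.25 with Junb. The 7 include Egr2 (-0.92) and Klf2 (-0.83), which had 0 reads in the heterozygous libraries, where Dusp1 was highest. Their values, and their part in the -0.70, are therefore no independent support. With Fos, Jun, Egr1, Ier2 and Atf3, r ran from -0.79 (Jun) to -0.24 (Fos). Dusp1 was highest in heterozygous library 1 and among the lower values in control 4.

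**Figure D4:**
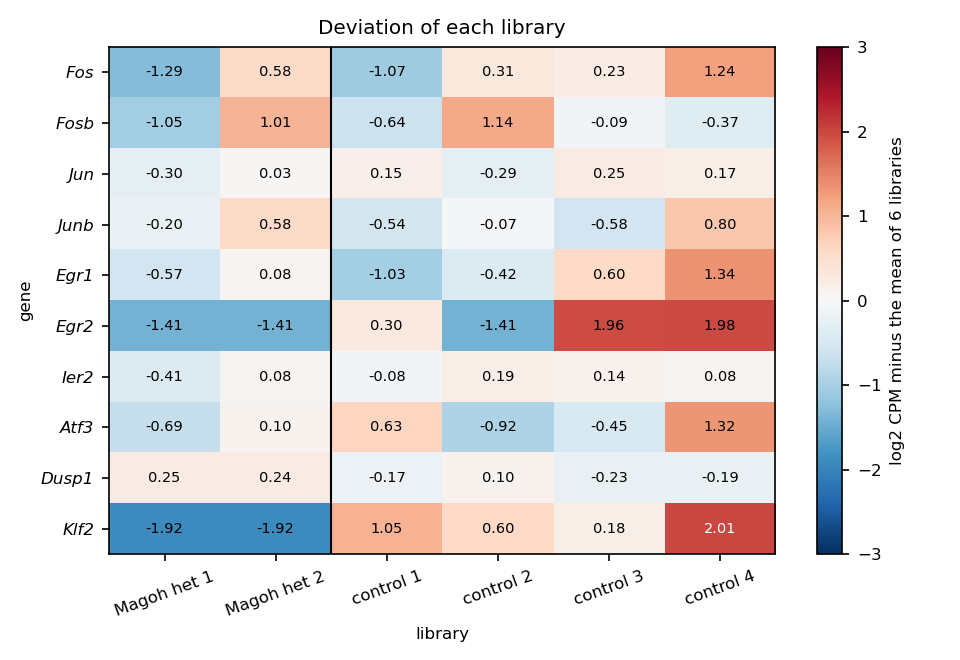
Log2 CPM (prior count 2) of each gene in each library minus its mean over the 6 libraries, heterozygous libraries left of the line. Control 4 is highest for Fos, Junb, Egr1, Egr2, Atf3 and Klf2, heterozygous library 1 is low for 9 of the 10 genes, and Dusp1 stands at 0.25 and 0.24 in the heterozygous libraries.

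Control 4 was also the library with the most myeloid and endothelial marker RNA. Without it, the log2 fold changes were -0.01 for Fos, -0.09 for Egr1, -0.15 for Atf3 and 0.65 for Junb, with standard errors of 0.69, 0.53, 0.76 and 0.47 (edgeR, adjusted p = 0.9999 for each). The part of these cells in the control 4 values was not tested. Heterozygous library 2 had 0 myeloid reads, 0.61 CPM over 7 erythroid markers and 9.21 CPM over 14 endothelial markers. Its Fos, Fosb and Junb were the second highest of all 6 libraries. Erythroid markers were highest in heterozygous library 1, at 362 CPM, where Fos, Fosb, Jun and Ier2 were lowest. The part of other cell types in the values of these libraries was not tested either.

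**Figure D5:**
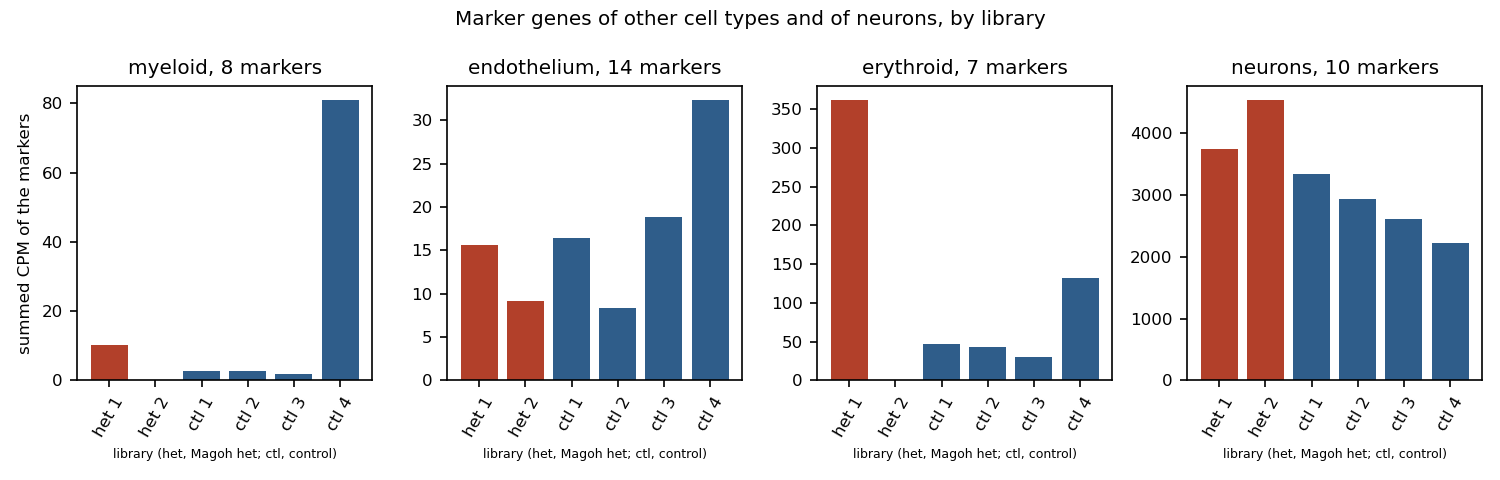
Summed CPM of marker genes in each library, bars from 0, heterozygous libraries (red) left of controls (blue). Myeloid and endothelial markers are highest in control 4 (81.0 and 32.4 CPM), erythroid markers in heterozygous library 1 (362 CPM), and heterozygous library 2 has 0 CPM of myeloid markers.

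Within the 4 controls alone, the low members differed widely between libraries. The highest control exceeded the lowest by 5.18-fold for Fos, 5.27-fold for Egr1, 5.15-fold for Atf3, 4.34-fold for Klf2, 3.66-fold for Fosb and 2.69-fold for Junb, where the median of tested genes with a mean under 5 CPM was 2.83-fold. The high members were even, at 1.45-fold for Jun, 1.26-fold for Dusp1 and 1.21-fold for Ier2. There the median of tested genes with a mean of 30 CPM or more was 1.46-fold.

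Other immediate early genes, from a list of 42 names of which 39 were tested, did not pass either. In this list 0 rose and 0 fell (edgeR over all genes, smallest adjusted p = 0.793), and 0 were called by DESeq2. At an unadjusted p under 0.05, 1 was higher and 3 were lower, against 1.75% and 3.98% of all tested genes. By sign, 16 log2 fold changes lay above 0 and 23 below, with a median of -0.18. Both heterozygous libraries lay above all controls for 2 of the 39 (6.17% of all tested genes) and below them for 5 (8.14%). Other MAP kinase phosphatases were among the 4 genes with the smallest p. Dusp4 had 96.5 and 125.5 CPM in heterozygous libraries 1 and 2, against 94.2, 86.2, 69.3 and 60.5 CPM in controls 1 to 4, and lay above them as Dusp1 did. Dusp6, a target of Fgf signalling, had 31.9 and 21.6 CPM in heterozygous libraries 1 and 2, against 39.0, 44.5, 52.4 and 58.5 CPM in controls 1 to 4, and lay below them. The log2 fold changes were 0.52 ± 0.22 for Dusp4 and -0.86 ± 0.24 for Dusp6 (SE; edgeR, adjusted p = 0.85 and 0.793).

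The other genes of that group were Ctgf, a secreted matrix protein, at -1.13 ± 0.38, and Socs3, an inhibitor of cytokine signalling, at -0.45 ± 0.18 (log2 fold change ± SE; edgeR, adjusted p = 0.828 and 0.85). Egr3 had 0 and 1.20 CPM in heterozygous libraries 1 and 2, against 0.155 to 0.965 CPM in controls. Npas4, the most neuron-specific activity gene, stayed at or below 0.295 CPM in all 6 libraries, and Arc between 1.70 and 3.22 CPM. Nr4a1, a nuclear receptor, had 3.87 and 3.38 CPM in heterozygous libraries 1 and 2, against 2.34 to 4.45 CPM in controls. Zfp36, whose product speeds the decay of AU-rich mRNAs, had 3.84 and 5.66 CPM in heterozygous libraries 1 and 2, against 3.03 to 6.71 CPM in controls. Btg2, an antiproliferative gene, had 88.8 and 87.1 CPM in heterozygous libraries 1 and 2, against 75.2 to 89.4 CPM in controls. Fosl2 stayed between 0.946 and 1.48 CPM in all libraries. In each of these 7 genes the groups overlapped.

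The kinases and factors that induce these genes showed no call. Of 25 names, 1 of which (Atf7) has 2 IDs, 26 genes were tested, 0 rose and 0 fell (edgeR, smallest adjusted p = 0.907; 0 by DESeq2 and 0 at an unadjusted p under 0.05), and the median log2 fold change was -0.10. Srf had 43.2 and 48.9 CPM in heterozygous libraries 1 and 2, against 40.9 to 46.3 CPM in controls. Its partner Elk1 had 42.1 and 46.5 CPM in heterozygous libraries, against 38.7 to 44.0 CPM in controls. Creb1 had 117 and 125 CPM in heterozygous libraries, against 106 to 141 CPM in controls, and Mapk3, which encodes ERK1, had 99.8 and 114 CPM in heterozygous libraries, against 90.7 to 107 CPM in controls. The smallest p values belonged to the kinase genes Rps6ka3 and Mapk8, with log2 fold changes of -0.27 ± 0.15 and 0.45 ± 0.27 (SE; edgeR, adjusted p = 0.907 and 0.919).

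Heat shock and chaperone genes, which tissue dissociation also induces, showed no call. Of 15 tested, 0 rose and 0 fell (edgeR, smallest adjusted p = 0.833; 0 by DESeq2), with a median log2 fold change of -0.12. At an unadjusted p under 0.05 there was 1 lower gene, Hspb1, against 3.98% of all tested genes. Hspb1, a small heat shock protein gene named here after its values were seen, had 0.613 and 0.387 CPM in heterozygous libraries 1 and 2, against 0.911, 1.73, 1.28 and 3.36 CPM in controls 1 to 4, with a log2 fold change of -1.86 ± 0.65 (SE; edgeR, adjusted p = 0.833). The inducible Hsp70 genes were low throughout. Hspa1b had 0.707 and 1.57 CPM in heterozygous libraries 1 and 2, against 2.63, 1.61, 2.12 and 1.68 CPM in controls 1 to 4, below all controls. Hspa1a, a near-identical copy whose reads may be split between the genes, had 0.424 and 0.671 CPM in heterozygous libraries 1 and 2, against 0.139 to 0.697 CPM in controls. Dnajb1, a co-chaperone, had 79.6 and 82.0 CPM in heterozygous libraries 1 and 2, against 72.6 to 96.2 CPM in controls. Over the 15 genes, both heterozygous libraries lay below all controls for 3, Hspb1, Hspd1 and Hspa1b (8.14% of all tested genes). They lay above all controls for 2, Hspa8 and Dnaja1 (6.17% of all tested genes). Hspd1, Hspa8 and Dnaja1 are named after their values were seen.

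Genes whose profile was most like the mean profile of the 10 members over the 6 libraries were Wdsub1 (Pearson r = 0.98), Llgl2 (0.98), Tmem150a (0.98), Pcp4l1 (0.97), Ccdc36 (0.97) and Igsf11 (0.97). They ranked highest among 11931 genes, leaving out clone-like names and means under 1 CPM. Of these, 83 (0.696%) had an r above 0.9. The 6 points are the same libraries for every gene, and control 4 was the highest library for each of the 6 named genes. Against the mean profile of the 8 members with reads in heterozygous cells, r for these genes was 0.71 to 0.90. No p is given for this description.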

How the data were processed

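The submitters' processing notes name build mm10 and the tools HTSeq, STAR and Trim Galore, without versions; the annotation and strand setting are not stated there. The authors deposited raw read counts per gene and a second table of normalized values, a signal that equals the counts divided by 1 factor per library. Columns were matched to samples through the code in each title, and 0 rows named no gene.

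Counts were filtered by filterByExpr, scaled by TMM and tested with edgeR 4.0.16 (R 4.3.3; robust quasi-likelihood fit; two-sided), p-values being adjusted by Benjamini-Hochberg over all genes and a threshold of 0.05. Standard errors come from the log2 fold change and the F statistic. DESeq2 1.42.0 and limma 3.58.1 were run beside it, and the scripts were tested on simulated data. There edgeR called 26% of the 2-fold and 77% of the 4-fold changes put into genes of at least 1 CPM, with 13 false calls. A gene without a call may therefore still differ. Exon lengths (union of exons) and coordinates are from GENCODE M21 (GRCm38), which held 36639 of 38561 gene IDs; promoters are from RefSeq (GRCm38.p6). Libraries carry no molecular identifiers. The members, lists and named genes were chosen with earlier results of these data known. Named were all members, set members of each list with those of smallest p (4 for the other immediate early genes, 2 for the regulators), defining markers, and the 6 genes most like the mean profile.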

Additional observations from a re-analysis of the deposited data

Results flagged for a closer look

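Among the 4 controls, Dusp1 stood at 44.2, 53.3, 42.4 and 43.6 CPM in controls 1 to 4. The gap between control 2 and its nearest neighbour was 0.832 of the whole range, above Dixon's critical value for 4 samples at the 95% level. Chance flags about 1 in 20 groups, and 10 genes were looked at. Without control 2 the log2 fold change of Dusp1 was 0.45 ± 0.12 (SE; edgeR, adjusted p = 0.187), and 0.36 with all libraries.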

How the results depend on the processing

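The number of members called was 0 under all 18 alternatives. The number of genes called over the whole table was 0 under 16 of them, 75 with DESeq2 and 11 with a replicate block on the code numbers; the cause was not tested. The genotypes share 1 such number, so with the block the difference rests on control 1 and heterozygous library 2, and no pairing could be checked. Of 172 log2 fold changes of members under the alternatives, 160 kept their sign and 12 reversed. With the block they were 1.70 for Fos, 1.12 for Egr1 and 0.17 for Ier2. Without both libraries that lack Y-linked reads they were 0.17 for Fos and 0.046 for Ier2. With limma-trend on the deposited normalized values it was -0.023 for Fosb. Leaving out 1 library gave -1.74 to 0.20 for Fos, -1.34 to 0.87 for Fosb, -0.23 to 0.65 for Junb, -0.99 to -0.09 for Egr1 and -0.50 to 0.011 for Ier2; with 1 heterozygous library left, that library is assumed to vary like the controls. Without control 1 the value was -0.06 and without control 4 -0.0050 for Fosb. Depth limits Egr2, Klf2 and Fosb, which had at most 75 reads in any library.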
